A study of Mus musculus with 12 samples.

Results

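The untreated femoral head cartilage of the study is described here as a baseline transcriptome. It comprised 4 of the 12 bead arrays of the series, and its members were the 12779 of 46632 probes (27.4%) detected on all 4 arrays. A probe was taken as detected on an array when 1 minus its deposited detection score was under 0.05, and no treatment values were used. The explants were femoral heads of 21-day-old TS-4/5∆cat mice, whose Adamts4 and Adamts5 genes both carry an in-frame deletion of the exon that encodes the catalytic domain. Every array of the series shares both deletions, so no wild-type cartilage was measured. Batch 1 (2 arrays) held cartilage of the line named Donut and batch 2 (2 arrays) that of the line named Gertrude, in both cases cultured for 3 days with no agent. Mouse line and batch divide the arrays in the same way, so they cannot be told apart, and every difference between them below is called a batch difference. According to the sample labels, 4 hips shared a well and were kept for 24 h in medium with 10% FBS before the treatment period, while the study's methods describe serum-free culture and unpooled mice. The number of mice that the methods give for a treatment is below the number of untreated arrays. Nothing ties an array to an animal, so the spread between the 2 arrays of a batch may be partly technical.

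Hyaline cartilage is a tissue of few cells in an abundant matrix. Its fibrils are built from type II collagen with types IX and XI, and the proteoglycan aggrecan, bound to hyaluronan through link protein, fills the space between them and holds water. Chondrocytes lay down this matrix under the control of the transcription factor Sox9. At 3 weeks of age the mouse femoral head still holds growing cartilage, in which chondrocytes enlarge, express type X collagen and Mmp13 and are replaced by bone, while the cells at the joint surface make lubricin, encoded by Prg4.

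The 4 arrays detected between 14959 and 19485 probes each, and 25906 probes (55.55%) were detected on none. The members carried 10699 gene symbols, which is 31.0% of the 34509 symbols on the array and includes 2960 provisional names. Levels are given as log2 of the background-corrected, quantile-normalised intensity, and the mean level of the member genes ran from 5.12 to 14.13 with a median of 7.66. Over the members, the arrays of one batch correlated at Pearson's r of 0.989 (batch 1) and 0.982 (batch 2), and arrays of different batches at 0.874 to 0.884. These correlations are across probes, which are not independent replicates. The 2 arrays of batch 1 lay within 1.5-fold of each other for 97.17% of the members and those of batch 2 for 89.19%, against 47.91% to 50.53% for arrays of different batches. The division between batches was thus the main one among the untreated arrays.

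Genes are placed below by brightness rank, where rank 1 is the brightest of the 10699 member symbols and each symbol is represented by its brightest detected probe. Brightness depends on the probe as well as on the amount of transcript. Among the 2524 pairs of member probes for one gene, the brightness percentiles of the 2 probes differed by a median of 21.02 points and their levels by a median of 1.27 on the log2 scale. A rank therefore describes the probe and gives no order of transcript amounts between genes.

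The labelled tissue was checked against 5 cartilage markers, and all 5 were bright on every array. Col2a1, the chain of type II collagen, measured 13.52 and 13.66 in batch 1 against 13.67 and 13.53 in batch 2 (rank 53). Acan, the aggrecan core protein, measured 13.10 and 13.24 in batch 1 against 13.06 and 13.39 in batch 2 (rank 108). Matn1, which encodes the cartilage adaptor protein matrilin 1, measured 13.15 and 13.27 in batch 1 against 13.45 and 13.29 in batch 2 (rank 93). All 3 lay on every array far above the median member gene, and their batches overlapped or differed by less than 0.2. Sox9 measured 13.24 and 13.35 in batch 1 against 12.93 and 12.81 in batch 2 (rank 128) and Prg4 13.82 and 13.97 in batch 1 against 13.59 and 13.62 in batch 2 (rank 27). Both were slightly lower on the arrays of batch 2, and the adjusted p was 0.0787 for Sox9 and 0.23 for Prg4. By its brightest probe none of the 5 markers was called between the batches with quantile normalization, and the least bright of them ranked 128 of 10699. Under the median scaling described below Col2a1, Prg4 and Sox9 were called lower in batch 2 (adjusted p = 0.0204, 0.000131 and 0.00264), and a dimmer probe of Col2a1 and of Prg4 was called higher.

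The promoters of 4 of the brightest genes are printed here to show what stands at the start of a matrix gene, a collagenase gene and a ribosomal protein gene that were all near the top of the scale in this tissue. The windows run from 250 bases before to 50 bases after the RefSeq start, 5′ to 3′ on the gene's strand. Capitals mark every match on either strand to one of 7 motifs. The motif TATAAA is the core of the TATA box. The CCAAT motif is another common promoter element. The letters GGGCGG are known as the GC box. The motif CCGGAAG is of the type bound by ETS factors. The palindrome CACGTG is an E-box. The heptamer TGACTCA is of the type bound by AP-1. The letters AACAAT are of the type bound by SOX factors.
Acan, GRCm38.p6 chr7:79052976-79053275, plus strand: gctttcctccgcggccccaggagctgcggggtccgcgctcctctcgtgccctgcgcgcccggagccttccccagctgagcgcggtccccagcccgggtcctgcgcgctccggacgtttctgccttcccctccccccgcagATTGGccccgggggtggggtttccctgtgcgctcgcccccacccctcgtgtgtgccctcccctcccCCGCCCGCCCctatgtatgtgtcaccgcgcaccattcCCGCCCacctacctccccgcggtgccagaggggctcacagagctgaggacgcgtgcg
Chad, GRCm38.p6 chr11:94564797-94565096, plus strand: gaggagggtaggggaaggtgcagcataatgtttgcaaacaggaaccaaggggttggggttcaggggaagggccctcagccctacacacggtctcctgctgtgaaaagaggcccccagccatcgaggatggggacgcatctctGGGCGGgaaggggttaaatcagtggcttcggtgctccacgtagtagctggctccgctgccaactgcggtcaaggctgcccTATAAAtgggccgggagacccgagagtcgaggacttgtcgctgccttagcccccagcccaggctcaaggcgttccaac
Mmp13, GRCm38.p6 chr9:7272264-7272563, plus strand: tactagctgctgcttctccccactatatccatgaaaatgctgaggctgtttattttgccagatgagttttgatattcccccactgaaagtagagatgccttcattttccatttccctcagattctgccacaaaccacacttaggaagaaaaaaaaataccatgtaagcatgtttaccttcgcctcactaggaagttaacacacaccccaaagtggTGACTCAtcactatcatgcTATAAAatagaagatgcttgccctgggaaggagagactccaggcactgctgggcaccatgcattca
Rps9, GRCm38.p6 chr7:3703791-3704090, plus strand: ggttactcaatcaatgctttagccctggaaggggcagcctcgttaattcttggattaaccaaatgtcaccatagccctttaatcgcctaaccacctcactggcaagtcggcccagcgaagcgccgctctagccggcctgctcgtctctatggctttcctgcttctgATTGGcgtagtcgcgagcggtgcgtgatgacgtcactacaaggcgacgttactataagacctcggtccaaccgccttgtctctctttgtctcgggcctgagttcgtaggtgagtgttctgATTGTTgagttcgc
The 4 windows are unlike one another. That of Acan holds 31 CpG dinucleotides and 3 GC boxes, of which 2 overlap, and no TATAAA. The window of Chad, which encodes the matrix protein chondroadherin, has a TATAAA whose first base stands 28 bases before the start. The Mmp13 window has the same motif 16 bases before the start, with an AP-1 type match at 35 bases and a single CpG. The window of Rps9, a protein of the small ribosomal subunit, has 21 CpGs with a CCAAT and an AACAAT match. A match is only a description of letters and says nothing of a factor's binding.

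Between the batches, 10625 of the 18182 probes detected on at least 2 arrays were called (58.4%) at a limma adjusted p under 0.05, with 4943 higher in batch 2 (27.2%) and 5682 lower (31.3%), and 25.9% were called with a difference above 2-fold. Among the 12779 members 55.5% were called, 19.3% higher and 36.1% lower. Taking 1 probe per gene, 57.3% of 14357 symbols were called, 23.2% higher and 34.2% lower, and these shares are the background for every family below. The median difference of batch 2 minus batch 1 was -0.13 over the probes tested and -0.22 over the symbols, so a difference near those values is that of the average gene. When the arrays were scaled to a common median instead, the median over the probes moved to -0.34, and the share of the called probes that were higher in batch 2 went from 46.52% to 32.03%. The scalings differed most at both ends of the brightness scale. Among the brightest 10% of the members the median difference was -0.08 with quantile normalization and -0.37 with median scaling, and among the dimmest 10% -0.47 and -0.85. Differences and calls below are by the brightest probe unless another is named, and are given as batch 2 minus batch 1 on the log2 scale ± SE, with n = 2 arrays in each batch and adjusted p-values from limma. With 2 arrays against 2, the smallest two-sided p of an exact permutation test is 0.333, so no single gene could pass one.

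Of the 20 symbols with the highest mean percentile, 8 had provisional names. The ribosomal protein genes Rps9, Rpl41, Rps14 and Rpl23, the ubiquitin gene Ubb and the elongation factor subunit gene Eef1g were also among them. A further 4 were genes of the matrix or its handling. Chad measured 13.74 and 13.80 in batch 1 against 14.14 and 14.22 in batch 2 (rank 6) and Comp, the cartilage oligomeric matrix protein, 13.65 and 13.82 in batch 1 against 13.87 and 14.04 in batch 2 (rank 9). Serpinh1, the collagen chaperone also known as Hsp47, measured 13.80 and 13.94 in batch 1 against 13.77 and 13.78 in batch 2 (rank 14). Mmp13, collagenase 3, measured 13.78 and 13.86 in batch 1 against 13.89 and 13.60 in batch 2 (rank 18). All 4 spanned under 0.5 over the 4 arrays and none was called between the batches with quantile normalization. Under median scaling Mmp13 and Serpinh1 were called lower in batch 2 (differences -0.79 and -0.82, adjusted p = 0.00172 and 0.00108), and Chad and Comp were not called. The highest value that quantile normalization gave was 14.22, and genes this close to it have little room to rise, though they can fall.

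**Figure D1:**
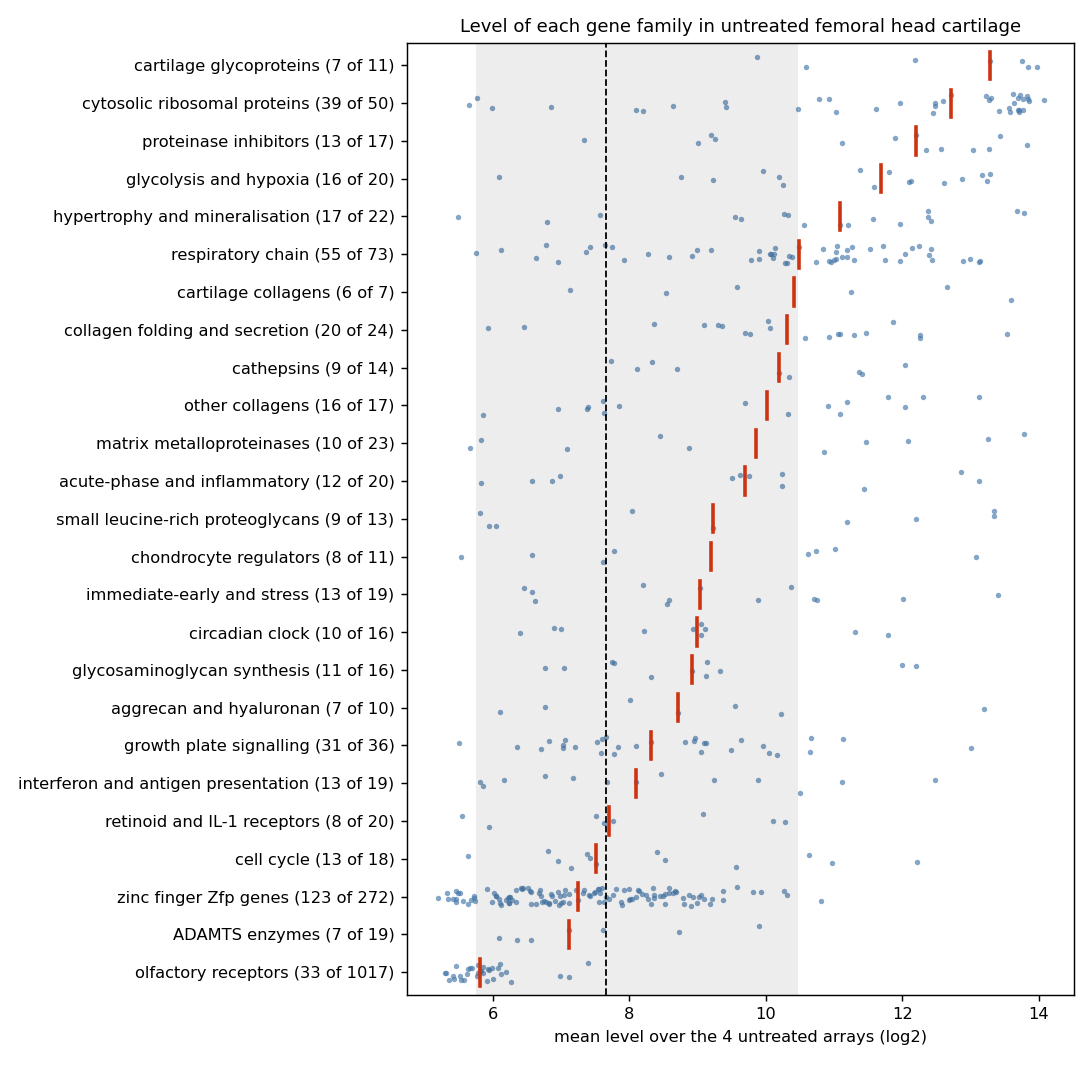
Mean log2 level over the 4 untreated arrays (horizontal axis) of each gene detected on all 4, by family, with the number detected on all 4 of the number on the array in brackets. Points are genes, placed at random heights within a row, red bars are family medians, the dashed line is the median of all member genes (7.66) and the grey band spans their 10th to 90th percentiles. Cartilage glycoproteins and ribosomal proteins have the highest medians and olfactory receptors the lowest.

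The 7 listed genes of cartilage collagens were all on the array, and 6 of them were detected on all 4 arrays with a median percentile of 87.73 (100 is the brightest member). By their brightest probes, all of these 6 but Col2a1 and Col11a2 were called between the batches. Col9a1, whose product coats type II fibrils, measured 11.68 and 11.74 in batch 1 against 13.66 and 13.55 in batch 2 (difference 1.89 ± 0.20, adjusted p = 5.09e-07). Col9a2 measured 10.56 and 10.79 in batch 1 against 11.70 and 11.93 in batch 2 (difference 1.14 ± 0.21, adjusted p = 0.000189). Col11a1, which sets fibril diameter, measured 7.0 and 7.33 in batch 1 against 10.08 and 9.75 in batch 2 (difference 2.75 ± 0.22, adjusted p = 1.22e-08). Every array of batch 2 lay above every array of batch 1 for these 3 genes. Col27a1 was likewise higher in batch 2 (difference 1.86 ± 0.21, adjusted p = 9.02e-07). Of the 7 genes tested 4 were called higher and 0 lower, and the median difference of the list was 1.14. Col11a2 lay below the median member gene at 7.02 and 7.33 in batch 1 against 7.16 and 7.0 in batch 2 (adjusted p = 0.716). Col9a3 was detected only on the arrays of batch 2, just above the detection limit.

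Other collagens were widespread in the explants, with 16 of 17 listed genes detected on all 4 arrays. The 3 chains of type VI collagen, which forms the pericellular basket around chondrocytes, ranked 118 (Col6a1), 278 (Col6a3) and 1186 (Col6a2), and none was called. Col1a1, the chain of the type I collagen of bone, tendon and ligament, measured 10.60 and 10.86 in batch 1 against 11.23 and 11.66 in batch 2 (difference 0.72 ± 0.22, adjusted p = 0.00986), and Col1a2 measured 6.70 and 6.69 in batch 1 against 8.02 and 8.16 in batch 2 (difference 1.39 ± 0.20, adjusted p = 1.82e-05). Col3a1, a chain of loose connective tissue, measured 6.76 and 6.66 in batch 1 against 7.28 and 8.83 in batch 2 (difference 1.34 ± 0.33, adjusted p = 0.00219). All 3 were lower on both arrays of batch 1, and the 2 arrays of batch 2 differed by over 1.5 for Col3a1. The largest difference of the list was that of Col16a1 (difference 2.00 ± 0.21, adjusted p = 2.91e-07). Of the 17 genes 8 were called higher and 2 lower, the latter being the basement membrane chain Col4a1 (difference -0.85 ± 0.26, adjusted p = 0.00908) and the fibril-associated Col14a1 (difference -0.81 ± 0.27, adjusted p = 0.0147).

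Aggrecan's partners were dimmer than aggrecan itself. Hapln1, the link protein that locks aggrecan to hyaluronan, measured 8.25 and 8.14 in batch 1 against 11.27 and 10.53 in batch 2 (difference 2.71 ± 0.24, adjusted p = 4.35e-08) and was the only gene of its list called. Has2, the main hyaluronan synthase of chondrocytes, measured 7.87 and 7.79 in batch 1 against 8.17 and 8.19 in batch 2, and the hyaluronan receptor Cd44 9.05 and 8.74 in batch 1 against 8.56 and 8.49 in batch 2. The batches did not overlap for either gene, but neither was called (adjusted p = 0.145 and 0.136). The probes of Vcan, which encodes versican, the related proteoglycan of soft connective tissue, were detected on none of the 4 arrays. Of the 10 genes of the list on the array, 7 were detected on all 4.

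The cartilage glycoproteins had the highest median percentile of any family, 99.14, with 6 of the 7 genes detected on all 4 arrays among the brightest 10%. Besides Chad, Comp, Prg4 and Matn1, these were Scrg1, a chondrocyte-rich secreted peptide gene, and Cilp2, a cartilage intermediate layer protein. Scrg1 measured 12.47 and 12.79 in batch 1 against 11.68 and 11.82 in batch 2 (difference -0.88 ± 0.21, adjusted p = 0.00178). Matn4 measured 10.34 and 10.42 in batch 1 against 9.61 and 9.11 in batch 2 (difference -1.02 ± 0.22, adjusted p = 0.000753). These 2 were the only genes of the 8 tested that were called, and both were lower on each array of batch 2. Matn3 was detected on no array, and Cilp and Matn2 on 1 array each. Cnmd, the gene of the vessel-repelling protein chondromodulin, was detected on 3 arrays at levels between 5.09 and 5.41.

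The small leucine-rich proteoglycans, which bind collagen fibrils and govern their spacing, fell into an even and an uneven group. Prelp measured 13.13 and 13.33 in batch 1 against 13.38 and 13.51 in batch 2, Dcn (decorin) 13.21 and 13.52 in batch 1 against 13.41 and 13.21 in batch 2 and Bgn (biglycan) 12.11 and 12.27 in batch 1 against 12.09 and 12.34 in batch 2. These 3 ranked 86, 87 and 311 and differed between the batches by at most 0.21 by their brightest probes. Lum (lumican) measured 7.38 and 7.43 in batch 1 against 10.98 and 11.12 in batch 2 (difference 3.64 ± 0.21, adjusted p = 3.05e-10), the largest difference by a brightest probe in the matrix lists among genes detected on all 4 arrays. Omd (osteomodulin) measured 9.92 and 10.08 in batch 1 against 12.41 and 12.37 in batch 2 (difference 2.39 ± 0.21, adjusted p = 3.12e-08). Fmod (fibromodulin) measured 6.63 and 7.06 in batch 1 against 9.42 and 9.08 in batch 2 (difference 2.41 ± 0.22, adjusted p = 7.89e-08). Both arrays of batch 2 exceeded both of batch 1 by at least 2.0 for each of the 3. Ogn was called higher on the strength of 1 array, at 5.39 and 5.70 in batch 1 against 5.59 and 7.10 in batch 2 (adjusted p = 0.0441), while another of its probes, detected in batch 2 alone, differed by 4.12. Of the 9 genes tested 4 were higher and 1, Podn, lower (difference -1.01 ± 0.23, adjusted p = 0.00131), and the probes of Aspn, Epyc, Kera and Nyx were detected on no array.

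**Figure D2:**
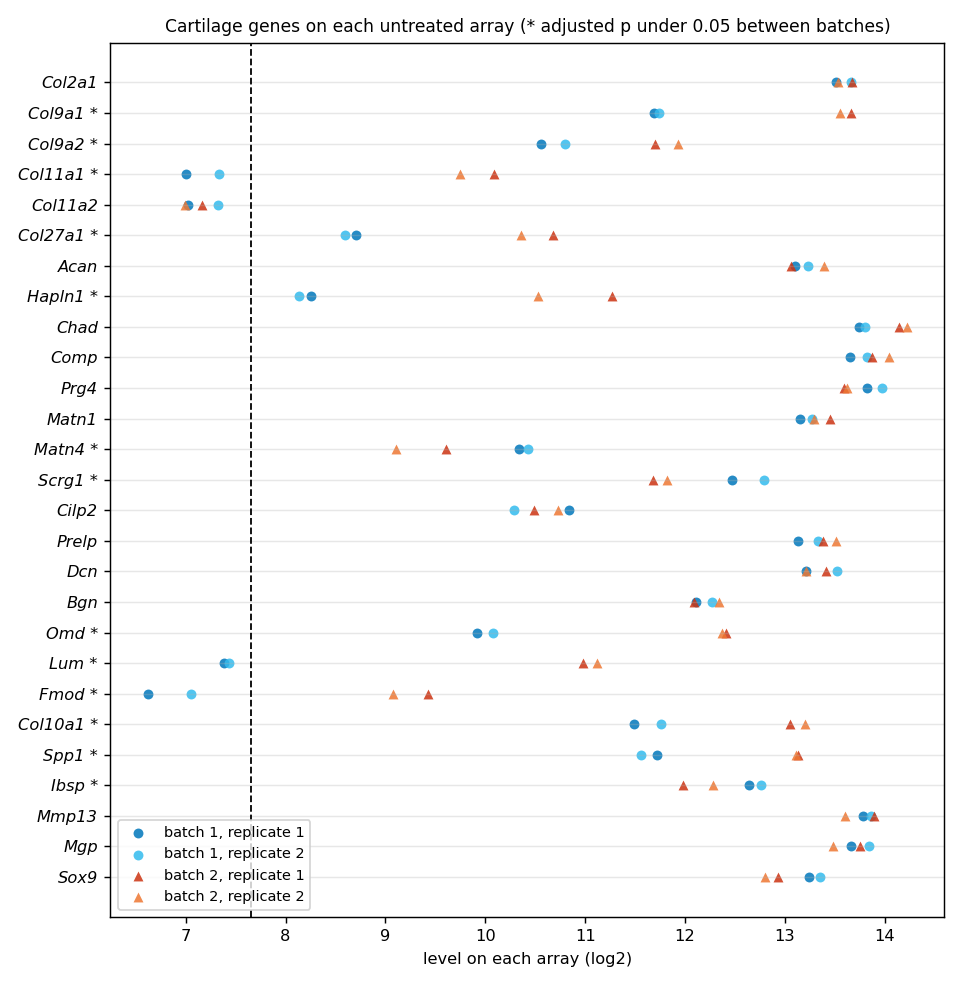
Log2 level (horizontal axis) of 27 cartilage genes on each untreated array, batch 1 as circles and batch 2 as triangles, with the median member gene as a dashed line and an asterisk on genes with an adjusted p under 0.05 between batches. Col2a1, Acan and Matn1 lie together on all 4 arrays near 13 to 14, whereas the batches are separated for Lum, Col11a1, Hapln1, Fmod and Omd.

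Regulators of the chondrocyte were present at all brightness levels. Besides Sox9, its partner genes Sox5 and Sox6 were detected on all 4 arrays, Sox5 at 10.91 and 10.93 in batch 1 against 10.87 and 10.25 in batch 2 and Sox6 at 8.38 and 8.04 in batch 1 against 7.24 and 7.47 in batch 2 (difference -0.85 ± 0.21, adjusted p = 0.0027). Trps1, a repressor active in the growth plate, measured 11.76 and 11.34 in batch 1 against 10.28 and 10.68 in batch 2 (difference -1.07 ± 0.22, adjusted p = 0.000613). Gdf5, a growth factor of developing joints, measured 8.27 and 7.97 in batch 1 against 6.94 and 7.27 in batch 2 (difference -1.02 ± 0.22, adjusted p = 0.000697). These 3 genes were among the 4 lower calls of the list. Both tested probes of Gdf5 were called lower, whereas the 2 probes of Trps1 were called in opposite directions. Runx1 was higher (difference 1.32 ± 0.23, adjusted p = 8.88e-05), and so was Foxa2, detected on 3 arrays (difference 0.96, adjusted p = 0.00209). Of the 10 genes tested 2 were called higher and 4 lower, near the shares of all symbols (23.2% and 34.2%).

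Genes of the hypertrophic and mineralising zones were among the bright ones, with 10 of the 17 detected on all 4 arrays among the brightest 10%. Col10a1, the collagen made by hypertrophic chondrocytes, measured 11.49 and 11.76 in batch 1 against 13.05 and 13.20 in batch 2 (difference 1.51 ± 0.21, adjusted p = 9.88e-06). Spp1, which encodes osteopontin, measured 11.72 and 11.55 in batch 1 against 13.13 and 13.11 in batch 2 (difference 1.48 ± 0.21, adjusted p = 9.2e-06), and Ibsp, the bone sialoprotein gene, 12.64 and 12.76 in batch 1 against 11.98 and 12.28 in batch 2 (difference -0.57 ± 0.21, adjusted p = 0.0265). The first 2 of these were higher on every array of batch 2 and the third was lower. Mgp, an inhibitor of calcification, measured 13.66 and 13.85 in batch 1 against 13.75 and 13.48 in batch 2 and was not called (adjusted p = 0.578). Alpl, the tissue-nonspecific alkaline phosphatase, measured 10.67 and 10.78 in batch 1 against 9.80 and 10.03 in batch 2 (difference -0.81 ± 0.21, adjusted p = 0.00302), and Pth1r, the receptor for parathyroid hormone-related protein, 11.11 and 11.19 in batch 1 against 10.03 and 9.88 in batch 2 (difference -1.20 ± 0.21, adjusted p = 8.98e-05). The 19 genes tested thus held 7 higher and 4 lower, with a median difference of -0.02, but 6 higher and 9 lower under median scaling. Vegfa, the vessel growth factor that hypertrophic cells release, was also higher in batch 2 (difference 2.02 ± 0.21, adjusted p = 2.94e-07). Runx2, the master regulator of hypertrophy, was detected on a single array, at 4.91 with the other 3 at 4.68 to 4.76, and Runx3 and Phospho1 on none.

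Most genes of growth plate signalling were detected, 31 of 36 on all 4 arrays, but their median percentile was only 62.41. The brightest was the fetal growth factor Igf2, at 12.71 and 12.87 in batch 1 against 13.31 and 13.12 in batch 2 (rank 136). Ihh, the hedgehog ligand of prehypertrophic cells, measured 7.38 and 7.38 in batch 1 against 7.60 and 7.95 in batch 2 and its feedback partner Pthlh 6.50 and 6.62 in batch 1 against 7.27 and 6.42 in batch 2. Neither was called. Smo, which transmits the hedgehog signal, measured 6.80 and 6.78 in batch 1 against 9.67 and 9.16 in batch 2 (difference 2.62 ± 0.22, adjusted p = 2.49e-08), and both of its probes were called higher in batch 2. The hedgehog receptor and target Ptch1 was higher by less (difference 0.62 ± 0.21, adjusted p = 0.0171), Hhip was lower (difference -0.62 ± 0.21, adjusted p = 0.0163), and Gli1 was detected on no array. Of the receptors and inhibitors of other pathways, Fgfr3, the brake on chondrocyte growth, measured 8.45 and 8.57 in batch 1 against 9.75 and 9.60 in batch 2 (difference 1.17 ± 0.21, adjusted p = 0.000118), and the Wnt antagonists Wif1 (difference 1.98 ± 0.23, adjusted p = 1.48e-06) and Frzb (difference 1.69 ± 0.21, adjusted p = 3.06e-06) were higher too. Within the TGF-beta ligands the directions were mixed. Tgfb1 measured 9.75 and 9.97 in batch 1 against 7.83 and 8.32 in batch 2 (difference -1.78 ± 0.22, adjusted p = 2.75e-06) and Tgfb2 6.55 and 6.67 in batch 1 against 8.83 and 8.58 in batch 2 (difference 2.10 ± 0.21, adjusted p = 1.92e-07), while Tgfb3 was not called (adjusted p = 0.215). In all, 14 of the 33 genes tested were called higher in batch 2 and 6 lower.

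The sulphated chains of aggrecan need a set of transferases and a sulphate donor, and 11 of the 16 such genes on the array were detected on all 4 arrays. Papss2, the synthase of the sulphate donor in cartilage, measured 12.56 and 12.10 in batch 1 against 11.74 and 12.43 in batch 2 (rank 309), and Slc35b2, which carries the donor into the Golgi, 12.24 and 12.25 in batch 1 against 12.04 and 11.42 in batch 2. Neither was called. Xylt2, which starts the chains, measured 8.33 and 8.19 in batch 1 against 7.29 and 7.20 in batch 2 (difference -1.02 ± 0.21, adjusted p = 0.000426), and B3gat3, which completes the linkage, 7.38 and 7.75 in batch 1 against 6.72 and 6.31 in batch 2 (difference -1.05 ± 0.22, adjusted p = 0.000711). Both were lower in batch 2, as were B3galt6 and Impad1. The probes of Ugdh and Chst13 were detected on no array. The sulphate transporter gene Slc26a2 was detected on the arrays of batch 2 alone, and it was not called under median scaling. Its level in batch 2 was at least 1.18-fold above the batch 1 limit. For such a bound, each array of the dim batch was given its lowest detected level, or the probe's own value if that was higher, and the average of these was subtracted from the average of the bright batch. A bound carries no p-value of its own.

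Among the ADAMTS enzymes, whose members cleave procollagens and proteoglycans, 7 of 19 were detected on all 4 arrays and 7 on none, a median percentile of 38.89. Adamts2, a procollagen N-proteinase, was the brightest at 9.94 and 10.09 in batch 1 against 9.76 and 9.82 in batch 2 (rank 1671). Adamts4 measured 8.51 and 8.57 in batch 1 against 8.70 and 9.14 in batch 2 and was not called (adjusted p = 0.138). The probe of Adamts5 was detected on no untreated array. Where these probes lie relative to the deleted exons is not given in the sources used here, so the values check neither deletion. Adamts9 measured 6.85 and 6.53 in batch 1 against 7.47 and 7.60 in batch 2 (difference 0.85 ± 0.21, adjusted p = 0.0024), Adamts3 6.93 and 7.06 in batch 1 against 6.05 and 6.23 in batch 2 (difference -0.85 ± 0.21, adjusted p = 0.00201) and Adamts15 7.46 and 7.18 in batch 1 against 5.37 and 5.39 in batch 2 (difference -1.94 ± 0.21, adjusted p = 4.95e-07). The first was higher and the other 2 were lower on both arrays of batch 2, for 2 genes higher and 2 lower among 12 tested, the other being Adamts7.

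The matrix metalloproteinases ran from very bright to undetected genes, with 10 detected on all 4 arrays and 5 on 1 to 3 arrays. Mmp13, Mmp3, Mmp2 and Mmp9 ranked 18, 99, 340 and 504, and 8 of the 23 genes were detected on no array. Mmp3, stromelysin 1, measured 13.19 and 13.37 in batch 1 against 13.40 and 13.05 in batch 2, Mmp2, a gelatinase, 12.27 and 12.32 in batch 1 against 11.84 and 11.88 in batch 2 and Mmp9, the gelatinase of osteoclasts and neutrophils, 11.32 and 11.49 in batch 1 against 11.64 and 11.41 in batch 2. None of these 4 was called by its brightest probe with quantile normalization. Under median scaling Mmp13 and Mmp2 were called lower in batch 2 (adjusted p = 0.00172 and 0.00791). Mmp14, the membrane-bound enzyme that activates pro-Mmp2, measured 10.41 and 10.65 in batch 1 against 11.49 and 10.87 in batch 2 (difference 0.65 ± 0.23, adjusted p = 0.0233). Mmp12, the macrophage elastase, was detected on 3 arrays at 5.77 and 5.20 in batch 1 against 8.41 and 8.82 in batch 2 (difference 3.13 ± 0.24, adjusted p = 6.61e-09). The 12 genes tested held 2 higher and 2 lower, the latter Mmp23 and Mmp10.

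Inhibitors of proteinases were brighter as a family than the enzymes, with a median percentile of 97.09 against 81.92 for the metalloproteinases and 87.42 for the cathepsins. Timp3, a matrix-bound inhibitor of both metalloproteinases and ADAMTS enzymes, measured 12.68 and 12.81 in batch 1 against 13.36 and 13.27 in batch 2 (difference 0.57 ± 0.21, adjusted p = 0.0239), and Timp1 12.95 and 13.13 in batch 1 against 12.19 and 11.99 in batch 2 (difference -0.95 ± 0.21, adjusted p = 0.000892). They were called in opposite directions, and of the 3 tested probes of Timp3 2 were called higher and 1 lower. Timp2 measured 10.98 and 10.80 in batch 1 against 11.07 and 11.60 in batch 2 and was not called (adjusted p = 0.0939), and Timp4 was detected only in batch 2, at least 1.88-fold above the batch 1 limit. Cst3, the cystatin that blocks cathepsins, measured 13.27 and 13.42 in batch 1 against 13.60 and 13.40 in batch 2. Serpina3n, an acute-phase serpin, measured 10.76 and 10.94 in batch 1 against 12.88 and 12.97 in batch 2 (difference 2.08 ± 0.21, adjusted p = 1.91e-07), and Reck, a membrane inhibitor of metalloproteinases, 8.12 and 8.01 in batch 1 against 9.76 and 10.14 in batch 2 (difference 1.88 ± 0.21, adjusted p = 9.4e-07). Of 15 genes 6 were called higher and 5 lower.

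Of the 11 cathepsins tested 10 were called, 5 in each direction. Ctsb measured 10.50 and 10.60 in batch 1 against 12.32 and 12.24 in batch 2 (difference 1.73 ± 0.20, adjusted p = 1.49e-06) and Ctsk, the collagenolytic cathepsin of osteoclasts, 10.56 and 10.85 in batch 1 against 12.18 and 11.89 in batch 2 (difference 1.33 ± 0.21, adjusted p = 4.74e-05). Ctsd measured 12.83 and 12.64 in batch 1 against 11.36 and 11.33 in batch 2 (difference -1.40 ± 0.21, adjusted p = 1.86e-05), and Ctsg, an enzyme of neutrophil granules, 8.71 and 8.87 in batch 1 against 7.0 and 6.37 in batch 2 (difference -2.10 ± 0.23, adjusted p = 5.98e-07). Thus lysosomal genes of one family stood on opposite sides of the line of equality, and the batches overlapped for none of these 4. The probe under the symbol Ctsl was detected on no array.

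Of the 20 genes of retinoid and IL-1 signalling, the pathways of the 2 agents used elsewhere in the study, 8 were detected on all 4 arrays, with a median percentile of 50.78. Rarg, a retinoic acid receptor, measured 7.13 and 7.23 in batch 1 against 7.89 and 8.30 in batch 2 (difference 0.91 ± 0.22, adjusted p = 0.00156), Rxra 7.55 and 7.77 in batch 1 against 7.49 and 7.27 in batch 2 and Rxrb 10.43 and 10.42 in batch 1 against 10.10 and 9.45 in batch 2. Rara and Rxrg were detected on no array and Rarb on 1. Il1r1, the signalling receptor for IL-1, was detected only on the arrays of batch 2, where it measured 5.67 and 5.11, and its co-receptor Il1rap on all 4 at 5.34 and 5.27 in batch 1 against 5.66 and 5.95 in batch 2 (adjusted p = 0.0497). Myd88, the adaptor of that receptor, and Il1rn, its natural antagonist, were also detected only in batch 2, at least 2.1-fold and 2.15-fold above the batch 1 limit. The lowest detected level was 5.21 on both arrays of batch 1 and 4.98 and 4.79 on those of batch 2, and over the whole array 2686 probes were detected on both arrays of batch 2 alone against 281 on both arrays of batch 1 alone.

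Acute-phase genes were bright although no cytokine had been added. Saa3, a serum amyloid gene, measured 13.60 and 13.60 in batch 1 against 12.87 and 12.41 in batch 2 (difference -0.96 ± 0.22, adjusted p = 0.00113), and Lcn2, the siderophore-binding lipocalin, 12.93 and 13.11 in batch 1 against 12.65 and 12.75 in batch 2 (adjusted p = 0.19). Hp, haptoglobin, measured 11.82 and 11.77 in batch 1 against 11.22 and 10.96 in batch 2 (difference -0.70 ± 0.21, adjusted p = 0.00811). The chemokine gene Cxcl1 measured 10.61 and 10.82 in batch 1 against 9.98 and 9.54 in batch 2 (difference -0.95 ± 0.22, adjusted p = 0.00131) and complement C3 10.00 and 10.12 in batch 1 against 9.01 and 9.36 in batch 2 (difference -0.88 ± 0.21, adjusted p = 0.00191). These 4 called genes were lower on each array of batch 2. Il6, Tnf and Nos2 were detected on no array, Ptgs2 on 1, and Il1b only on the arrays of batch 1. Of 15 genes tested 8 were lower and 2 higher, with a median difference of -0.55. The higher ones were Ccl2 (difference 1.69 ± 0.21, adjusted p = 2.07e-06) and Cxcl2, whose level in batch 2 did not reach the batch 1 limit. Of the 17 antigen presentation and interferon genes tested 7 were called lower and 4 higher, near the shares of all symbols (34.2% and 23.2%). The immunoproteasome subunit Psmb8 was among the lower ones (difference -1.86 ± 0.21, adjusted p = 7.71e-07), while B2m measured 12.28 and 12.43 in batch 1 against 12.60 and 12.61 in batch 2 and was not called.

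Immediate-early and stress genes were detected for the most part, 13 of 19 on all 4 arrays. The metallothionein Mt1 ranked 79 at 13.24 and 13.41 in batch 1 against 13.60 and 13.33 in batch 2, without a call. Jun measured 7.27 and 7.38 in batch 1 against 6.37 and 5.45 in batch 2 (difference -1.42 ± 0.25, adjusted p = 0.000147) and Egr1 7.77 and 7.97 in batch 1 against 8.58 and 8.52 in batch 2 (difference 0.68 ± 0.21, adjusted p = 0.00934), and Hmox1, heme oxygenase 1, 10.13 and 10.27 in batch 1 against 11.36 and 11.25 in batch 2 (difference 1.11 ± 0.21, adjusted p = 0.000198). The 14 genes tested were divided evenly, with 4 higher and 4 lower. Cell cycle genes were dimmer, with a median percentile of 47.08. Mki67 measured 7.17 and 7.35 in batch 1 against 7.54 and 7.50 in batch 2, not called. Top2a was higher in batch 2 (difference 1.33 ± 0.20, adjusted p = 2.76e-05), and the brightest of the list was Cdkn1c, an inhibitor of proliferation, at 12.75 and 12.89 in batch 1 against 11.79 and 11.43 in batch 2 (difference -1.21 ± 0.21, adjusted p = 0.000121).

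Glycolysis, on which the poorly perfused chondrocyte relies, was one of the brightest families, with a median percentile of 95.85 and 10 of 16 genes among the brightest 10%. Tpi1, Ldha, Gapdh and Pkm ranked 94, 102, 115 and 154, and none was called. Ldha measured 13.20 and 13.39 in batch 1 against 13.05 and 13.29 in batch 2. Pgk1 measured 11.34 and 11.47 in batch 1 against 12.76 and 12.96 in batch 2 (difference 1.46 ± 0.21, adjusted p = 1.26e-05) and Pfkp 8.19 and 8.33 in batch 1 against 10.38 and 10.02 in batch 2 (difference 1.94 ± 0.21, adjusted p = 6.41e-07). These 2 kinases were higher on each array of batch 2. The hypoxia target Adm was detected only there, at least 8.01-fold above the batch 1 limit. Of 19 genes tested 5 were higher and 1 lower.

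The machinery that folds and exports collagen had 20 of 24 genes detected on all 4 arrays, with a median percentile of 88.44. P4hb, a subunit of prolyl 4-hydroxylase, measured 13.49 and 13.64 in batch 1 against 13.61 and 13.38 in batch 2 (rank 61), without a call, and Lox, which cross-links collagen, 12.27 and 12.57 in batch 1 against 11.85 and 12.34 in batch 2. Plod2, a lysyl hydroxylase, measured 8.97 and 9.25 in batch 1 against 10.86 and 11.15 in batch 2 (difference 1.90 ± 0.21, adjusted p = 8.82e-07), and the chaperone Hsp90b1 9.70 and 9.96 in batch 1 against 10.97 and 11.67 in batch 2 (difference 1.49 ± 0.24, adjusted p = 4.55e-05). Sec24d, a coat protein of the vesicles that carry procollagen, was detected only in batch 2, at least 10.88-fold above the batch 1 limit, and the isomerase Pdia6 at least 3.15-fold. Atf4 was higher too (difference 2.32 ± 0.23, adjusted p = 1.79e-07), whereas Ddit3 was lower (difference -0.96 ± 0.22, adjusted p = 0.00127) and so were the procollagen C-proteinase Bmp1 and its enhancer Pcolce (-0.93 and -0.83). Of 23 genes 11 were called higher and 5 lower, and under median scaling 7 and 7.

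Clock genes were detected at moderate levels, 10 of 16 on all 4 arrays. Tef and Dbp, outputs of the clock, measured 11.99 and 12.03 in batch 1 against 11.65 and 11.46 in batch 2 and 10.95 and 11.06 in batch 1 against 11.78 and 11.43 in batch 2. Per2 was higher in batch 2 (difference 0.90 ± 0.21, adjusted p = 0.00132) and Nr1d1 lower (difference -0.58 ± 0.21, adjusted p = 0.024). Bhlhe40, a hypoxia-responsive repressor, measured 7.69 and 8.05 in batch 1 against 10.04 and 10.38 in batch 2 (difference 2.34 ± 0.22, adjusted p = 9.37e-08). Arntl was detected in batch 2 alone, at least 2.25-fold above the batch 1 limit. The 13 genes tested held 5 higher and 1 lower. The hour of harvest is not given in the sources used here.

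Housekeeping families gave a measure of the whole scale. Of 50 cytosolic ribosomal protein symbols 39 were detected on all 4 arrays with a median percentile of 98.35, and of 73 respiratory chain symbols 55 with a median of 90.15. Of 272 Zfp zinc finger symbols 123 were detected on all 4, at a median of 41.62. Olfactory receptors, which have no established part in cartilage, had 33 of 1017 symbols detected on all 4 arrays (3.24%), at a median percentile of 11.37. Their median was between 17.83 and 20.18 on the arrays of batch 1 and 8.8 and 4.91 on those of batch 2, and 85 of the 116 tested were called lower in batch 2 and 0 higher. The commonly used reference genes were not all stable between the batches. Gapdh was not called, Rpl26 was higher (difference 1.07 ± 0.22, adjusted p = 0.000518), and Actb was lower by its brightest probe (difference -0.87 ± 0.23, adjusted p = 0.00363), with 1 of its 3 tested probes higher.

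RNA of cells other than chondrocytes was detected in every array. The erythroid genes Hba-a1 and Hbb-b1 measured 13.22 and 13.39 in batch 1 against 13.77 and 13.21 in batch 2 and 13.61 and 13.23 in batch 1 against 13.62 and 14.09 in batch 2 (ranks 78 and 44), while Epb42 was detected on none. Of the 10 neutrophil markers 9 were detected on all 4 arrays. The alarmin gene S100a8 measured 12.44 and 12.85 in batch 1 against 12.29 and 12.14 in batch 2, myeloperoxidase (Mpo) 10.60 and 10.78 in batch 1 against 9.07 and 8.73 in batch 2 (difference -1.79 ± 0.21, adjusted p = 1.62e-06), proteinase 3 (Prtn3) 9.28 and 9.61 in batch 1 against 7.21 and 7.33 in batch 2 (difference -2.18 ± 0.21, adjusted p = 1.47e-07) and neutrophil elastase (Elane) 9.40 and 9.56 in batch 1 against 7.71 and 7.64 in batch 2 (difference -1.80 ± 0.21, adjusted p = 9.9e-07). Mpo, Prtn3 and Elane were thus lower on both arrays of batch 2. Of the 9 neutrophil markers 6 were called lower and 1, S100a9, higher (difference 1.49 ± 0.21, adjusted p = 8.82e-06). Neither S100a8 nor Ngp was called, and Ngp differed by 0.39 (adjusted p = 0.108). The median difference of the list was -1.14. The summed linear level of its 10 genes was 13513.9 and 16186.1 in batch 1 and 10778.7 and 9146.0 in batch 2, and only Chil3 was detected on no array. The 6 neutrophil markers called lower moved in the same direction as Saa3, Hp, Cxcl1 and C3, and their part in those differences was not tested. In bulk cartilage, fewer cells of a type and less RNA per cell cannot be told apart.

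Markers of bone and marrow were mixed. The osteoblast genes Sp7 and Bglap measured 9.39 and 9.42 in batch 1 against 11.10 and 11.13 in batch 2 and 8.47 and 8.65 in batch 1 against 7.65 and 7.11 in batch 2, the former called higher in batch 2 and the latter lower, while Dmp1, Sost and Tnn were detected on no array. Of the macrophage markers Lyz2 ranked 379 and was even across the arrays at 11.74 and 12.04 in batch 1 against 11.88 and 12.06 in batch 2. Adgre1 was detected only in batch 2, at least 3.52-fold above the batch 1 limit, as Csf1r was near that limit, and Itgam and Cd163 were detected nowhere. Of the 7 macrophage markers tested 3 were called higher and 1, Cd68, lower (difference -0.77, adjusted p = 0.0086). All 10 endothelial markers were detected on at least 2 arrays, led by Emcn at 9.31 and 9.40 in batch 1 against 9.62 and 9.87 in batch 2, and 4 of them were lower and 2 higher in batch 2. Of the 9 lymphocyte markers 6 were detected on no array and of the 9 muscle markers 4, although the troponin gene Tnni2 measured 10.77 and 11.02 in batch 1 against 9.99 and 10.26 in batch 2 (difference -0.77 ± 0.21, adjusted p = 0.00475). Tnmd and Scx, genes of tendon, measured 8.12 and 8.21 in batch 1 against 7.82 and 7.79 in batch 2 and 6.64 and 6.95 in batch 1 against 5.95 and 6.05 in batch 2. Among sex-linked genes, Xist measured 7.89 and 7.50 in batch 1 against 9.13 and 9.40 in batch 2 (difference 1.58 ± 0.22, adjusted p = 9.41e-06), Eif2s3y was detected on both arrays of batch 2 and neither of batch 1, and Ddx3y on none. The Y-linked Uty measured 6.37 and 6.07 in batch 1 against 5.60 and 5.34 in batch 2 (difference -0.75 ± 0.21, adjusted p = 0.00592), the opposite direction to Eif2s3y.

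**Figure D3:**
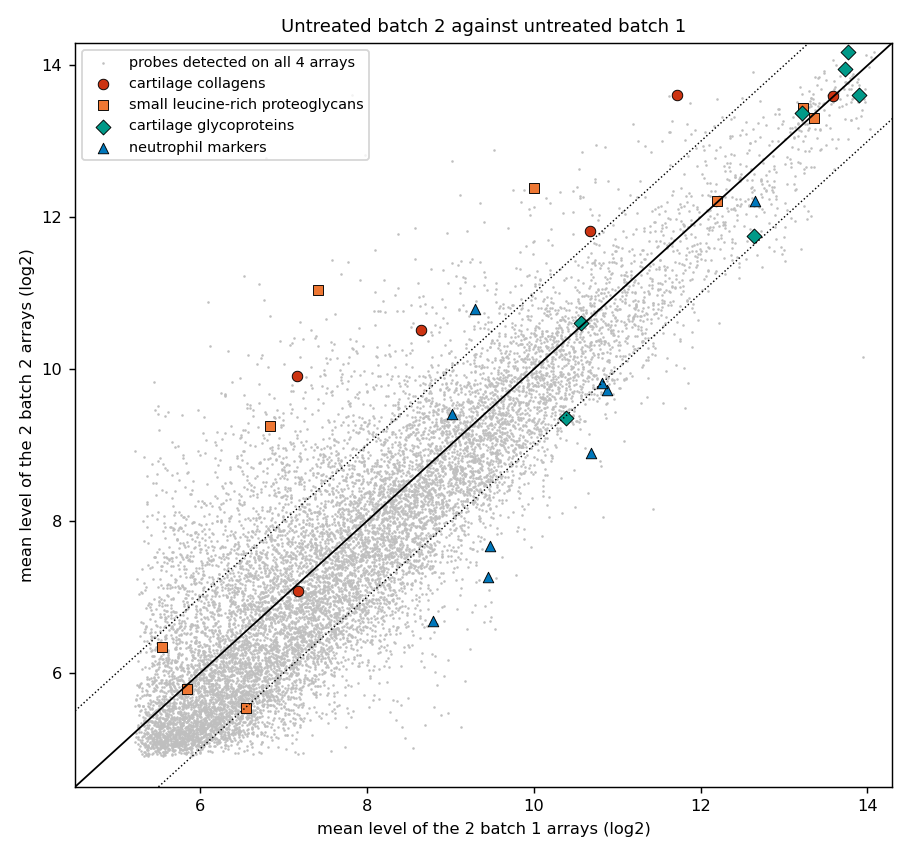
Mean log2 level of the 2 untreated arrays of batch 2 (vertical axis) against that of the 2 arrays of batch 1 (horizontal axis) for the 12779 member probes in grey, with 4 families in colour. The solid line marks equality and the dotted lines a 2-fold difference. Col9a1, Col11a1, Lum, Omd and Fmod lie above the upper dotted line, the bright glycoproteins near equality and most neutrophil granule genes below the lower dotted line.

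Seen by family, the calls between the batches leaned in both directions. The largest shares of higher calls against the background of 23.2% were those of the cartilage collagens (4 of 7), collagen folding and secretion (11 of 23), other collagens (8 of 17), retinoid and IL-1 receptors (6 of 13), cathepsins (5 of 11) and small leucine-rich proteoglycans (4 of 9). Genes detected in batch 2 alone could enter the test and are part of these counts. Among them were Il1rn, Myd88 and Nfkbia of the receptors, Ctss of the cathepsins, and Sec24d and Pdia6 of collagen folding. Over probes detected on all 4 arrays the shares were 19.3% higher and 36.1% lower. The largest shares of lower calls against the background of 34.2% were those of the olfactory receptors (85 of 116), the neutrophil markers (6 of 9), muscle markers (3 of 5) and acute-phase genes (8 of 15). Under median scaling the cartilage collagens held 4 higher and 1 lower, the neutrophil markers 1 higher and 7 lower and the acute-phase genes 1 higher and 8 lower. Other families moved with the scaling. Collagen folding and secretion went to 7 higher and 7 lower, the hypertrophy list to 6 and 9, the retinoid and IL-1 receptors to 4 and 2, and the ribosomal proteins from 6 higher and 10 lower to 4 and 21. The median difference changed sign under that scaling for 11 lists. Among these were the ribosomal proteins (0.03 to -0.52) and the endothelial (0.15 to -0.32), adipocyte (0.13 to -0.19), osteoblast (0.08 to -0.14), macrophage (0.17 to -0.02) and cartilage (0.01 to -0.59) markers. The others were the cartilage glycoproteins (0.04 to -0.51), the small leucine-rich proteoglycans (0.21 to -0.17), the proteinase inhibitors (0.16 to -0.19), glycolysis (0.04 to -0.17) and the list of aggrecan and its partners (0.06 to -0.13). Bright markers moved with it. Col2a1 went from 0.01 to -0.59 (adjusted p = 0.0204) and Prg4 from -0.29 to -0.96 (adjusted p = 0.000131), whereas Lum stayed at 3.62 and Col11a1 at 2.76.

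**Figure D4:**
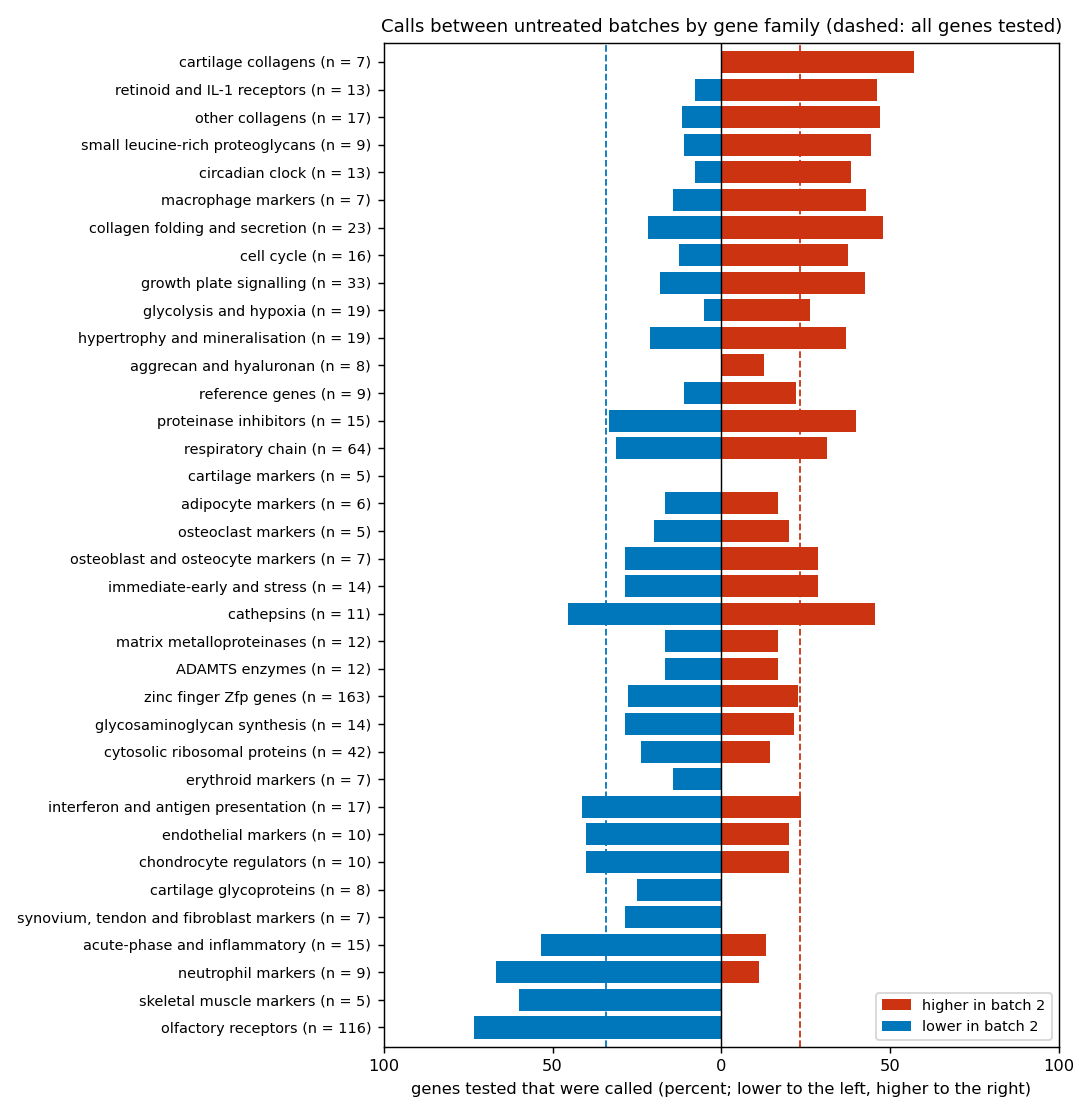
Share of the tested genes of each family that was called higher (red, to the right) or lower (blue, to the left) in untreated batch 2 than in batch 1, in percent, at a limma adjusted p under 0.05. Dashed lines mark the shares over all symbols tested (23.2% higher, 34.2% lower), and only families with at least 5 tested genes are shown. Cartilage collagens are at the top with no lower call and olfactory receptors at the bottom with no higher call.

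The bright cartilage genes that were even between the batches by their brightest probe were not always even by another. One of the 2 other Col2a1 probes measured 10.64 and 10.51 in batch 1 and 12.78 and 12.93 in batch 2 (difference 2.28 ± 0.21, adjusted p = 5.8e-08), and the remaining one was not called (-0.52 ± 0.23, adjusted p = 0.0625). The second Prg4 probe measured 7.63 and 7.54 against 11.56 and 11.31 (difference 3.85 ± 0.21, adjusted p = 2.23e-10). That of Mmp13 measured 8.60 and 8.14 against 11.58 and 11.97 (difference 3.41 ± 0.23, adjusted p = 1.68e-09). In all 3 cases the brightest probe was not called and the dimmer one was well above the spread. Dcn had 3 probes called higher and 1 lower beside its uncalled brightest probe, and Sox5 had 2 higher and 1 lower. Pth1r, Hhip, Sp7, Rxrb and Hp, each given above by the call of the brighter of 2 tested probes, had the other probe called in the opposite direction. Besides these, Col6a1, Col6a3, Papss2, Slc35b2, Adamts2, Mmp3, Tpi1 and Hbb-b1 had at least 1 dimmer probe called higher, and Ihh and Emcn 1 called lower, where the brightest was not called.

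The same held across the array. Of 162 symbols with a probe above 11.25, the limit of the brightest 5% of the member probes, and at least 1 other tested probe, the brightest probe was called higher in batch 2 for 21 and lower for 48, and the next brightest probe higher for 70 and lower for 31. The median absolute difference was 0.43 for the brightest probe and 0.71 for the next. Over all 2300 genes with exactly 2 tested probes, both probes pointed the same way for 60.61%. The numeric bead identifiers of the array fall into a low and a high range, whose meaning is not given in the sources used here, and the share was 64.16% where both probes lay in one range and 54.53% where they did not. Of 1832 pairs of called probes for one gene, 569 were called in opposite directions (31.06%). A batch difference of a single gene is therefore that of its probe, and for 434 of 2967 symbols with at least 2 tested probes the calls were contradictory.

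**Figure D5:**
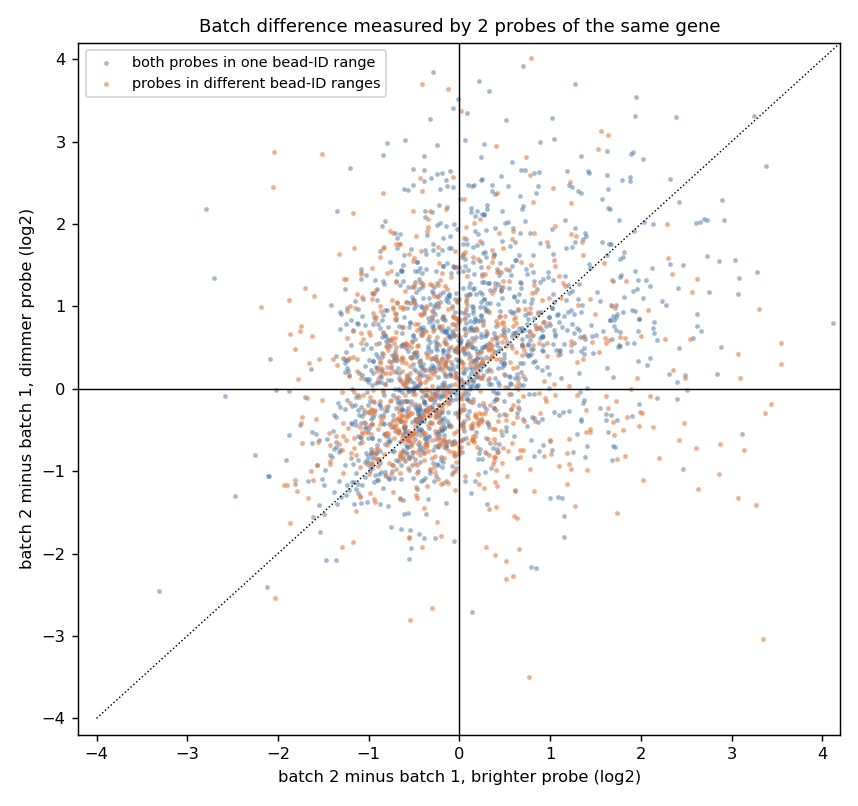
Difference of untreated batch 2 minus batch 1 (log2) by the dimmer of 2 tested probes (vertical axis) against that by the brighter one (horizontal axis), 1 point per gene with exactly 2 tested probes (2300 genes, 2 of them outside the axes). Points in the upper left and lower right of the plot are genes whose 2 probes moved in opposite directions, and the dotted line marks equal differences.

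The bead ranges also differed in the batch difference itself. In the high range 19.32% of 6041 tested probes were called higher in batch 2 and 40.72% lower, with a median of -0.37, and in the low range 31.1% and 26.54% of 12141, with a median of -0.01. The 2 arrays of one batch differed by range as well, since replicate 2 minus replicate 1 had a median over the members of -0.30 (high range) and 0.13 (low range) in batch 1 and of 0.21 and -0.12 in batch 2. The part of this in the batch differences was not tested. With quantile normalization run within each range, Lum, Col11a1 and Hapln1 differed by 3.53, 2.63 and 2.65.

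The largest batch differences among the members did not belong to cartilage genes. The 18S ribosomal RNA symbol Rn18s headed the rises with 2 probes. The first measured 6.70 and 6.87 in batch 1 and 12.81 and 12.76 in batch 2 (difference 6.00 ± 0.21, adjusted p = 1.93e-12), and the other rose by 5.80, while another Rn18s probe differed by 1.29. The provisional symbol LOC666403 followed with 4.84, Pabpc1, the poly(A)-binding protein gene, with 4.79 ± 0.21, 1 of 10 tested Hbb-b1 probes with 4.71 and Fn1, fibronectin, with 4.41. All 4 tested Fn1 probes were higher. Of the 10 largest falls 9 were by probes of the high bead range and 2, Ccdc80 and Zcchc14, carried a current RefSeq symbol. Ccdc80 measured 14.10 and 13.80 in batch 1 and 9.70 and 10.62 in batch 2 by that probe (difference -3.79 ± 0.26, adjusted p = 2.19e-09), while another of its probes measured 12.47 and 12.71 against 12.89 and 13.07 and was not called.

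Start site windows were available in the RefSeq table (GRCm38.p6) for 5408 of the 10699 member symbols (50.55%), with 1 window taken for each symbol. The member windows held a median of 21 CpG dinucleotides and those of 5378 symbols undetected on all 4 arrays a median of 6, against 7 over all 27025 symbols in the table. GC boxes stood in 66.07% of the member windows, 30.33% of the undetected ones and 35.91% of all. TATAAA was in 7.29%, 18.09% and 14.16%. Over all windows the other motifs stood in 37.92% (CCAAT), 10.92% (the SOX type), 7.24% (the E-box) and 5.17% (the AP-1 type). Detected genes therefore had the GC-rich windows and undetected genes the TATAAA letters more often, as a description with no test.

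Within the members the families differed in these letters. CCGGAAG stood in 12 of 27 ribosomal protein windows (44.44%) and in 0 of 34 windows of the matrix lists, against 17.51% of the member windows and 9.12% of all windows. CpGs had a median of 22 in the ribosomal protein windows and 9 in the matrix windows. Over the members, GC boxes were in 61.09% of the windows of the dimmest 20% and 69.22% of those of the brightest 20%. Of the 100 brightest symbols with a window, 15 held TATAAA, as in Chad and Mmp13 above, against 7.29% of the members and 14.16% of all windows. With the motif on the gene's strand 20 to 40 bases before the start, as in Chad but not Mmp13, the count was 4. The share was then 1.33% of the members and 2.22% of all windows. No window of the table matched Col2a1, Comp, Prg4, Sox9 or Mgp.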

How the data were processed

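RNA of untreated femoral head cartilage explants was measured on 4 Illumina Sentrix mouse bead arrays, 2 in each of 2 batches. The authors deposited 1 table of probe intensities, neither background-subtracted nor normalised, with, beside every intensity, a deposited detection score that rises with it. The tool that summarised the beads is not given in the sources used here. All value columns belong to a labelled array, and the 8 treated arrays served only in alternatives.

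Normalization and tests used limma 3.58.1 (R 4.3.3) on these 4 arrays. Its neqc function estimated background from 1 minus the score, applied quantile normalization and an offset of 16, and took log2. A probe entered the test when 2 or more arrays had it at a detection p below 0.05, and the test was made by lmFit and eBayes with batch as the term, with Benjamini-Hochberg adjustment over all 18182 probes at 0.05. The precision is limited by the number of arrays. The functions were tested on simulated data.

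Named genes were any gene of the lists, the 20 symbols with the highest mean percentile over the arrays, and the 10 largest rises and 10 largest falls among called members. Second probes of a gene named for its contrast with the first were chosen after their values were seen. A gene was represented by its brightest probe among those detected on all 4 arrays, otherwise by its brightest probe. The lists covered cartilage matrix, regulators, enzymes, inhibitors, housekeeping families and markers of other cell types. The members and lists were chosen with earlier results of these data known. Symbols are those of the array, and 16333 of 34509 are current in the RefSeq table of GRCm38.p6. Fold bounds were used where no probe of a gene was detected in a batch. A few of these genes are not reported here. The alternatives are listed in the closing section.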

Additional observations from a re-analysis of the deposited data

Results flagged for a closer look

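Over the 4 untreated arrays, 310 values (the levels of 308 named genes detected on all 4 arrays, the median raw intensity and the number of probes detected) were checked for 1 array far from the other 3. By Dixon's critical ratio for 4 values, 10 values stood out. Chance flags about 1 in 20 when the 4 values come from 1 group. Here they came from 2 batches of 2 arrays, so the 10 cannot be judged against that rate. On replicate 2 of batch 2, Sox5 was at 10.25 with the others at 10.87 to 10.93, Slc2a1 at 11.98, Wnt5a at 7.32, Adamts6 at 6.32 and Pparg at 6.35. On replicate 1 of batch 2, Xbp1, a transcription factor of the secretory response, was at 12.79 with the others at 12.07 to 12.13, Tgfbr1 at 9.59 and Irak1 at 7.11. On batch 1, Hyal1 was at 6.20 on replicate 1, with the others at 6.92 to 7.0, and Aurka at 7.20 on replicate 2.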

How the results depend on the processing

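The count of probes detected on all 4 untreated arrays (12779) was 9483 at a detection p under 0.01, 14584 when 3 arrays sufficed, and 12862 to 13551 when each array in turn was left out and detection on the other 3 was required. The number of probes called between the batches (10625) stayed within 1.5 times under the other background correction, scaling, offset, filters, models and normalization sets tried (7218 to 12353), and fell to 4708 when a change above 2-fold was required as well. It was 7931 to 9941 when each array in turn was left out, where the lone array of a batch is assumed to vary like the others. The share of called probes that were higher (46.52%) was 32.03% with median scaling and 34.64% over probes detected on all 4 arrays, and the cause was not tested. Between the batches the deviations of same-numbered arrays correlated at -0.323, and at -0.026 and -0.161 within the low and the high bead range, so the numbers do not pair the arrays. With the replicate number as a block 9695 probes were called, and with the crossed pairing, chosen after seeing the data, 11812. Normalization within each bead range, also chosen after seeing the data, gave 11168 calls, of which 9675 were shared with the 10625. Of the 158 batch differences of named genes and probes followed through the alternatives, Col2a1 alone was turned, to -0.59 with median scaling. It had not been called with quantile normalization. With median scaling 8 of the 158 lost the call, and without a filter 36 did. Cxcl2 and Csf1r, called higher but not among the 158, also changed sign with median scaling (0.62 to -0.23 and 0.84 to -0.02), and neither was then called. Family median percentiles moved by more than the spread between arrays for 16 of 38 lists when the median of a gene's detected probes was used in place of the brightest, and for 37 when the percentile was taken among all probes. The 158 differences leave out other named genes that were not called at first, and some of these gained a call with median scaling. Among them Prg4, Sox9, Mmp13, Mgp, Serpinh1, Tpi1 and Pkm were then called lower in batch 2 (adjusted p = 0.000131, 0.00264, 0.00172, 0.0018, 0.00108, 0.00619 and 0.00828). Values near the lowest detected level limit what falls can be seen, and values near the top of the scale limit what rises can be seen.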
